A study of Mus musculus with 20 samples.

Results

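The genes described here build and supply the primary cilium: the intraflagellar transport (IFT) trains and their motors, the BBSome that carries membrane proteins, the enzymes and carriers of ciliary membrane cargo, and the transition zone that gates the ciliary base. They are 57 of the 24411 genes in the count table, taken by symbol from a written list of 57 names, and every name was found. By role they are 13 subunits of the IFT-B complex, 6 of the IFT-A complex, 4 kinesin-2 motor subunits, 4 dynein-2 subunits, 8 genes of the BBSome and its GTPase, 3 BBS chaperonins, 4 genes of membrane cargo, 12 of the transition zone and 3 of the inversin compartment. A filter on low counts kept 56 of them in each comparison. The remaining one, *Kif17*, a kinesin-2 motor gene, had a mean of 0.452 CPM (counts scaled to the library's size) and was not tested.

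The primary cilium is a single antenna on most tubule cells, and it is built and kept by cargo trains that run along its microtubules. IFT-B trains move to the tip with kinesin-2, IFT-A trains return with dynein-2, and the transition zone sets which proteins enter. Polycystin-2, the product of *Pkd2*, is an ion channel of this organelle, and loss of cilium genes such as *Ift88* or *Kif3a* in tubules also gives kidney cysts.

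The study sequenced total RNA of whole kidneys from 20 mice at P125 (postnatal day), 1 library per mouse, to relate loss of *Pkd2* after kidney development to gene expression in both sexes. There were 5 mice in each of 4 groups, drawn from 3 litters that are named A, B and C here. Total counts per library ran from 11307741 to 19324073 with a median of 15813304.5.

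Mutants carried floxed *Pkd2* alleles together with *Pax8 rtTA* and *TetO Cre*, and controls were littermates with floxed *Pkd2* that lacked either *Pax8 rtTA* or *TetO Cre*. All 20 mice, controls included, were given doxycycline hyclate (DOX) at 50 mg/kg from P27 to P29, and no group went without DOX. The *Pax8* promoter drives rtTA in tubule cells, and which cells lost *Pkd2* was not tested here. The RNA came from the whole kidney, which also holds vessels, glomeruli, interstitium and immune cells. In such bulk RNA, fewer cells of a type and less RNA per cell cannot be told apart. Mice are named by sex, genotype and number, so that MC is a male control, MM a male mutant, FC a female control and FM a female mutant. The weight of a kidney as a percentage of body weight (KBW), with the labelled weight taken as that of 1 kidney, averaged 1.68 ± 0.338 in male mutants and 0.692 ± 0.117 in male controls (SD, n = 5), and 1.18 ± 0.261 in female mutants and 0.615 ± 0.0448 in female controls (SD, n = 5).

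*Pkd2* itself stood at 272, 298, 250.3, 332 and 303 CPM in the male controls, 109.7, 124, 109.7, 133 and 120.1 in the male mutants, 193, 306, 291, 218 and 278 in the female controls and 150.1, 133, 94.7, 182 and 166 in the female mutants. Every mutant lay below every control of its own sex, and the log2 fold change over both sexes was -1.06 (SE 0.12, edgeR adjusted p = 9.70e-06). The female mutant FM4 had the highest *Pkd2* level of the 10 mutants. Its library also stood apart: it held 11307741 counts, the lowest total of the 20, with 14850 genes detected against 16776 to 17724 in the others, and 76 genes with a single count against 708 to 859. Counts of called members are given with and without it, as are the values of several single genes. Its KBW was the lowest of the mutants, 0.836%.

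Levels can be compared between genes only per length, here as reads per kilobase of merged exons scaled to library size (RPKM, with GENCODE vM21 lengths). Over the 57 genes the mean level in the 20 mice had a median of 4.67 RPKM, from 0.0986 for *Kif17* and 0.399 for *Nphp4*, a transition zone gene, to 35.2 for *Ift20*, the IFT-B subunit that also works at the Golgi. Kinesin-2 (median 10.95 RPKM over its 4 genes) and IFT-B (median 7.05) stood above the transition zone (median 2.06) in this measure. The IFT-B genes ran from 2.38 RPKM (*Ift80*) to 35.2 (*Ift20*), the IFT-A genes from 1.21 (*Wdr19*) to 10.1 (*Ift43*), and the kinesin-2 genes that passed the filter reached 11.9 (*Kif3a*). Dynein-2 genes ran from 2.01 RPKM (*Dync2h1*, the heavy chain) to 21.3 (*Dync2li1*), the BBSome group from 2.79 (*Bbs4*) to 14.8 (*Arl6*), and the chaperonins from 1.61 (*Bbs10*) to 18.8 (*Mkks*). Membrane cargo genes ran from 3.57 RPKM (*Arl13b*) to 27.9 (*Arl3*), transition zone genes from 0.399 (*Nphp4*) to 8.51 (*B9d2*), and inversin compartment genes from 2.11 (*Invs*) to 4.00 (*Nek8*). In CPM, which does not allow for length, the ends of the same roles were *Ift27* and *Ift20*, *Wdr19* and *Ift122*, *Kif17* and *Kif3b*, *Wdr34* and *Dync2li1*, *Bbs5* and *Arl6*, *Bbs10* and *Mkks*, *Arl13b* and *Arl3*, *Nphp4* and *Cc2d2a*, and *Anks6* and *Invs*.

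The first comparison asks how the transcripts of the cilium machinery differ between mutant and control kidneys over both sexes. They differed little: the 56 genes tested lay between -0.34 (*Bbs10*) and 0.23 (*Arl13b*) on the log2 scale, with a median of -0.061 beside -0.012 over all 14191 genes tested. In edgeR, with litter and sex as covariates and called genes at an adjusted p under 0.01, 1 of 56 was called, the IFT-B gene *Ift57*, which fell, against 15.9% of all genes tested. DESeq2 called 3, *Ift57*, *Arl3* and *Anks6*, beside 20.9% of all genes. At an unadjusted p under 0.05 there were 18 of 56, 2 higher and 16 lower in mutants, beside 37.7% of all genes tested. The log2 fold change was negative for 38 of 56 (67.9%), beside 52.5% of all genes, and with library totals in place of TMM factors (a trimmed mean scaling of library sizes) for 29 of 56 (51.8%), beside 41.0%. At an unadjusted p under 0.05 library totals gave 13 of 56, beside 38.2% of all genes. The median absolute log2 fold change was 0.091 for the members and 0.15 for all genes, and 0 of the 56 members exceeded 0.5 in size, beside 15.4% of all genes. A p that misses the threshold does not show equal levels, but the 95% confidence intervals bound the differences: 54 of 56 lay within 0.5 log2 of no difference (1.41-fold), and 0 reached 1. With library totals the members' median was -0.0024 beside 0.045 for all genes, and the called member was *Ift80* (higher) instead of *Ift57*, beside 16.5% of all genes. Without FM4, 3 members were called (*Tulp3*, *Ift57* and *Nek8*, each lower) beside 21.0% of all genes, with a median of -0.065. Without FC1 or FM1, 3 were called (*Arl3* and *Ift57* lower, *Ift80* higher) beside 13.5% of all genes, and without MC4, MC5, MM1, MM4, MM5, FC2, FC3 or FC4 edgeR called none of the 56 (16 to 20 at an unadjusted p under 0.05, beside 33.3 to 37.3% of all genes), with 11.6 to 14.5% of all genes called.

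**Figure D1:**
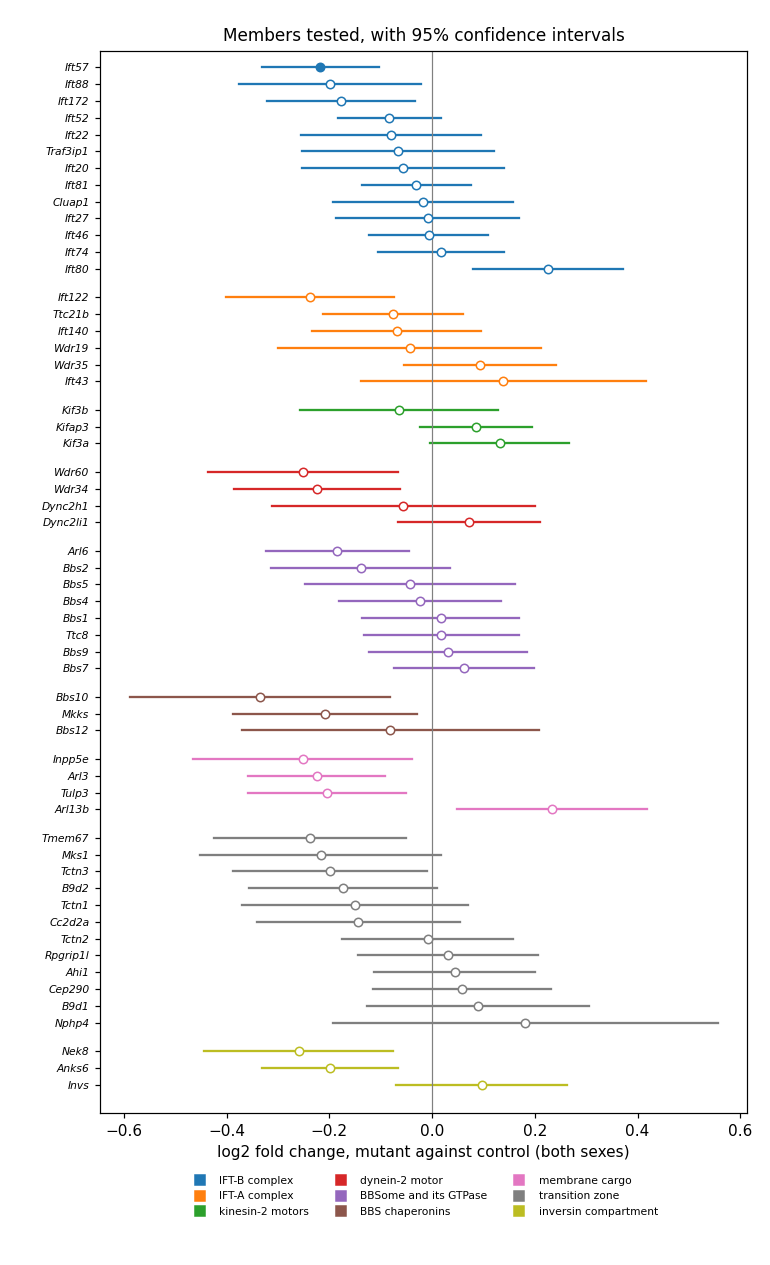
Log2 fold change of mutants against controls over both sexes (x axis) for each of the 56 cilium genes tested (y axis), grouped by role and coloured as in the legend, from 20 mice. Points are edgeR estimates, lines are 95% confidence intervals, and the filled point is the gene called at an adjusted p under 0.01, *Ift57* at -0.22; with library totals in place of TMM factors that gene was not called.

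Among the 13 IFT-B genes, the train that carries cargo toward the tip, *Ift57* fell in mutants. It encodes a peripheral IFT-B subunit and lies at chr16:49699233-49765126, plus strand (mm10, GENCODE vM21). *Ift57* stood at 37.7, 36.1, 41.2, 38.1 and 39.7 CPM in the male controls, 32.05, 33.3, 35.4, 29.9 and 33.1 in the male mutants, 34.6, 35.8, 35.5, 36.03 and 35.5 in the female controls and 35.01, 30.2, 27.2, 28.7 and 32.96 in the female mutants. In males every mutant lay below every control, and in females 4 of the 5 mutants lay below the lowest control, with FM1 inside the control range. Over both sexes the log2 fold change was -0.22 (SE 0.054, n = 10 mutants and 10 controls, edgeR adjusted p = 0.00573, 95% interval -0.33 to -0.10). Within the 6 groups of sex and litter, mutant minus control in log2 CPM ran from -0.32 to 0.016 and was negative in 5 of 6. Over both sexes *Ift57* was 1.16-fold lower. Fitted by sex, males gave -0.24 (edgeR adjusted p = 0.0388) and females -0.19 (edgeR adjusted p = 0.280).

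The call of *Ift57* sits near the threshold. It held in 12 of the 20 fits that left out 1 mouse, with or without FM4 (adjusted p = 0.00670 without it), and was lost without MC4 (0.0150), MC5 (0.0110), MM1 (0.0128), MM4 (0.0102), MM5 (0.0138), FC2 (0.0125), FC3 (0.0118) or FC4 (0.0124), the values being adjusted p from edgeR. It was also lost with library totals (adjusted p = 0.0312) and with no filter on low counts (adjusted p = 0.0105). The other 12 IFT-B genes were not called by edgeR (or by DESeq2) and lay between -0.20 (*Ift88*, a core subunit) and 0.23 (*Ift80*). *Ift80*, chosen for mention after its values were seen, was 24.5, 22.7, 25.2, 27.3 and 22.8 CPM in male controls and 31.4, 27.5, 33.01, 29.3 and 28.2 in male mutants, and these did not overlap. Its adjusted p over both sexes was 0.0225. The median log2 fold change of the 13 was -0.056, and -0.00071 with library totals.

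The 6 IFT-A genes form the train that returns to the base and also loads membrane proteins. None of the 6 was called by edgeR, beside 15.9% of all genes. At an unadjusted p under 0.05 there was 1, beside 37.7%, and DESeq2 called 0, beside 20.9%. The median of the 6 was -0.056, and 0.0024 with library totals. The smallest adjusted p belonged to *Ift122*, a core subunit. *Ift122* stood at 73.4, 76.9, 62.04, 71.98 and 82.1 CPM in the male controls, 53.9, 68.4, 60.4, 64.8 and 73.4 in the male mutants, 66.1, 56.2, 61.1, 53.8 and 47.3 in the female controls and 36.2, 45.4, 49.3, 51.3 and 52.2 in the female mutants. MM1 and FM1 were the lowest of their sexes, and mutants and controls overlapped in both sexes. With both sexes in the fit, the log2 fold change was -0.24 (SE 0.078, n = 10 mutants and 10 controls, edgeR adjusted p = 0.0311, 95% interval -0.40 to -0.073). Taken inside each of the 6 groups of sex and litter, mutant minus control in log2 CPM ran from -0.86 to 0.14 and was negative in 5 of 6. The other 5 lay between -0.076 (*Ttc21b*) and 0.14 (*Ift43*). *Ift43* was at 8.36 CPM in FM4, the lowest of the 20 mice, and at 0.22 log2 without it (adjusted p = 0.0652).

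Of the kinesin-2 genes, *Kif3a* and *Kif3b* encode the motor chains and *Kifap3* the subunit that holds them together. EdgeR called none of the 3 tested, beside 15.9% of all genes. There were 0 at an unadjusted p under 0.05, beside 37.7%, and DESeq2 called 0, beside 20.9%. *Kif3a* had the smallest adjusted p. *Kif3a* stood at 33.1, 39.9, 38.98, 40.1 and 36.98 CPM in the male controls, 42.7, 37.4, 44.9, 42.6 and 35.7 in the male mutants, 37.8, 45.7, 40.7, 48.2 and 42.7 in the female controls and 54.7, 51.00, 42.4, 48.3 and 46.2 in the female mutants. Both sexes overlapped, and FM1 was the highest of the 20 mice. The log2 fold change over both sexes was 0.13 (SE 0.065, n = 10 mutants and 10 controls, edgeR adjusted p = 0.146, 95% interval -0.0047 to 0.27). Mutant minus control within the 6 groups of sex and litter, in log2 CPM, ran from -0.050 to 0.53 and was negative in 1 of 6. Without FC1 the log2 fold change of *Kif3a* was 0.083 (adjusted p = 0.341) and without FM1 0.084 (adjusted p = 0.334). *Kifap3* was at 0.085 and *Kif3b* at -0.065 log2 (-0.038 without FM4). *Kif17*, which runs beside the main motor in some cilia, had between 2 and 17 counts per mouse, or 0.146 to 0.943 CPM.

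Dynein-2 is the motor of the return train. None of its 4 genes was called by edgeR over both sexes, beside 15.9% of all genes. At an unadjusted p under 0.05 there were 2, beside 37.7%, and DESeq2 called 0, beside 20.9%. *Wdr34*, an intermediate chain, had the smallest adjusted p. *Wdr34* stood at 20.8, 20.5, 20.7, 21.8 and 23.3 CPM in the male controls, 17.01, 17.8, 19.8, 15.1 and 17.9 in the male mutants, 15.95, 15.8, 15.6, 18.3 and 20.7 in the female controls and 18.6, 15.4, 15.2, 11.8 and 15.98 in the female mutants. Male mutants all lay below male controls, whereas females overlapped, with FM4 the lowest of the 20 mice. Over both sexes the log2 fold change was -0.22 (SE 0.077, n = 10 mutants and 10 controls, edgeR adjusted p = 0.0381, 95% interval -0.39 to -0.063). Within the 6 groups of sex and litter, mutant minus control in log2 CPM ran from -0.38 to 0.22 and was negative in 5 of 6. Without FM4 the log2 fold change of *Wdr34* was -0.20 (adjusted p = 0.0476). The other intermediate chain, *Wdr60*, was at -0.25 (adjusted p = 0.0411), or -0.20 (adjusted p = 0.0340) without FM4, which was the lowest of the 20 mice at 12.6 CPM. The heavy chain *Dync2h1* was at -0.056 and the light intermediate chain *Dync2li1* at 0.071 log2.

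The BBSome is a coat that carries membrane receptors, and *Arl6* is the GTPase that brings it to membranes; the list holds 7 of its subunits and *Arl6*. None of the 8 was called by edgeR over both sexes, beside 15.9% of all genes, and *Arl6* had the smallest adjusted p. At an unadjusted p under 0.05 there was 1, beside 37.7%, and DESeq2 called 0, beside 20.9%. *Arl6* stood at 35.4, 36.9, 33.9, 34.98 and 35.4 CPM in the male controls, 29.8, 29.2, 31.3, 26.7 and 28.9 in the male mutants, 29.1, 32.9, 28.5, 32.9 and 31.97 in the female controls and 31.99, 29.9, 22.5, 28.5 and 31.5 in the female mutants. Male mutants all lay below male controls, and in females FM3 and, by less than the rounding shows, FM4 were below the controls while the others overlapped them. With both sexes in the fit, the log2 fold change was -0.18 (SE 0.066, n = 10 mutants and 10 controls, edgeR adjusted p = 0.0466, 95% interval -0.32 to -0.045). Taken inside each of the 6 groups of sex and litter, mutant minus control in log2 CPM ran from -0.29 to 0.13 and was negative in 5 of 6. The 7 subunits lay between -0.14 (*Bbs2*, -0.20 without FM4) and 0.063 (*Bbs7*, 0.036 without FM4 and 0.024 without FC5), with 4 of the 8 genes negative and a median of -0.0032, or 0.052 with library totals.

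The 3 chaperonin genes, whose products help assemble the BBSome, were each lower in mutants by the estimate. Their median was -0.21 (-0.16 with library totals), and none of the 3 was called by edgeR, beside 15.9% of all genes. At an unadjusted p under 0.05 there were 2, beside 37.7%, and DESeq2 called 0, beside 20.9%. *Bbs10* was the lowest. *Bbs10* stood at 4.76, 4.45, 6.38, 6.33 and 4.57 CPM in the male controls, 4.52, 3.55, 3.41, 4.09 and 5.08 in the male mutants, 5.60, 4.85, 6.07, 6.73 and 5.01 in the female controls and 5.25, 4.55, 4.71, 3.88 and 4.23 in the female mutants. It is a low count gene, and mutants and controls overlapped in both sexes. The log2 fold change over both sexes was -0.34 (SE 0.12, n = 10 mutants and 10 controls, edgeR adjusted p = 0.0471, 95% interval -0.59 to -0.082). Mutant minus control within the 6 groups of sex and litter, in log2 CPM, ran from -0.74 to 0.15 and was negative in 5 of 6. *Mkks* was at -0.21 and *Bbs12* at -0.081 log2.

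Among the 4 membrane cargo genes, *Arl3* encodes the GTPase that releases lipid-modified cargo inside the cilium. None of the 4 was called by edgeR over both sexes, beside 15.9% of all genes. All 4 had an unadjusted p under 0.05, beside 37.7% of all genes, and DESeq2 called 1, *Arl3*, beside 20.9%. *Arl3* stood at 70.6, 73.3, 82.5, 67.7 and 71.8 CPM in the male controls, 61.7, 66.3, 64.5, 53.9 and 60.6 in the male mutants, 68.96, 78.1, 68.8, 79.9 and 92.2 in the female controls and 78.05, 66.2, 55.4, 63.1 and 68.1 in the female mutants. Male mutants all lay below male controls, while FM1 overlapped the female controls and the other 4 female mutants lay below them. Over both sexes the log2 fold change was -0.22 (SE 0.064, n = 10 mutants and 10 controls, edgeR adjusted p = 0.0135, 95% interval -0.36 to -0.091). Within the 6 groups of sex and litter, mutant minus control in log2 CPM ran from -0.44 to 0.18 and was negative in 5 of 6. It was called by edgeR without FC1 (adjusted p = 0.00274) and without FM1 (adjusted p = 0.00278). *Inpp5e*, the phosphatase that sets the lipids of the ciliary membrane, was at -0.25 (-0.31 without FM4) and *Tulp3*, an adapter for membrane receptors, at -0.20 log2.

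*Arl13b*, the GTPase that activates *Arl3* and marks cilia in staining, had the highest estimate of the 56, 0.23 (SE 0.088, edgeR adjusted p = 0.0569). Its level was 19.2, 16.8, 13.3, 16.7 and 13.96 CPM in the male controls, 16.9, 17.2, 19.5, 17.96 and 18.6 in the male mutants, 18.6, 17.01, 19.04, 18.6 and 13.7 in the female controls and 19.9, 18.8, 19.9, 28.5 and 19.4 in the female mutants. FM4 was the highest of the 20 mice, and the other 4 female mutants lay between 18.8 and 19.9. Without FM4 the estimate was 0.17 (adjusted p = 0.0864). *Tulp3* also had its highest female mutant value in FM4, 46.2 CPM against 30.1 to 33.8, and was called over both sexes without that mouse (-0.26, adjusted p = 0.00172) but not with it (adjusted p = 0.0456).

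The 12 transition zone genes encode the links between microtubule and membrane at the ciliary base. None of the 12 was called by edgeR over both sexes, beside 15.9% of all genes. At an unadjusted p under 0.05 there were 2, beside 37.7%, and DESeq2 called 0, beside 20.9%. *Tmem67*, a membrane receptor of this zone, had the smallest adjusted p. *Tmem67* stood at 10.98, 13.3, 12.3, 12.3 and 11.96 CPM in the male controls, 8.37, 8.27, 11.2, 9.11 and 9.54 in the male mutants, 12.1, 13.1, 11.4, 10.8 and 8.05 in the female controls and 9.99, 11.03, 11.6, 10.3 and 9.40 in the female mutants. MM3 alone of the male mutants reached the control range, and female mutants lay within the range of female controls. With both sexes in the fit, the log2 fold change was -0.24 (SE 0.089, n = 10 mutants and 10 controls, edgeR adjusted p = 0.0567, 95% interval -0.43 to -0.050). Taken inside each of the 6 groups of sex and litter, mutant minus control in log2 CPM ran from -0.54 to 0.22 and was negative in 5 of 6. The 12 genes lay between -0.24 (*Tmem67*) and 0.18 (*Nphp4*), 7 of them negative, with a median of -0.076, or -0.019 with library totals. The tectonics *Tctn1*, *Tctn2* and *Tctn3* were at -0.15, -0.0085 (-0.064 without FM4, which had 20.2 CPM) and -0.20, the B9 domain genes *B9d1*, *B9d2* and *Mks1* at 0.090, -0.17 and -0.22, and *Cep290*, a large linker protein, at 0.058 log2. *Cc2d2a*, *Rpgrip1l* and *Ahi1* were at -0.14, 0.030 and 0.044 (0.028 without FM4).

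The inversin compartment lies just beyond the transition zone and holds inversin (*Invs*), the kinase *Nek8* and its activator *Anks6*, all known as cystic kidney genes. None of the 3 was called by edgeR over both sexes, beside 15.9% of all genes. At an unadjusted p under 0.05 there were 2, beside 37.7%, and DESeq2 called 1, *Anks6*, beside 20.9%. *Anks6* stood at 19.9, 19.2, 17.05, 17.6 and 17.6 CPM in the male controls, 16.00, 16.3, 19.5, 17.6 and 16.9 in the male mutants, 20.2, 20.5, 20.7, 22.2 and 22.2 in the female controls and 15.5, 15.9, 17.3, 18.3 and 19.4 in the female mutants. Female mutants all lay below female controls, whereas males overlapped. The log2 fold change over both sexes was -0.20 (SE 0.063, n = 10 mutants and 10 controls, edgeR adjusted p = 0.0260, 95% interval -0.33 to -0.066). Mutant minus control within the 6 groups of sex and litter, in log2 CPM, ran from -0.38 to 0.072 and was negative in 5 of 6. *Nek8* was at -0.26 (adjusted p = 0.0352, and 0.00792 without FM4) and *Invs* at 0.10 log2.

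In males alone, mutants against controls, edgeR called 0 of 56, against 8.46% of all genes tested, with 15 at an unadjusted p under 0.05 (1 higher, 14 lower), beside 33.7% of all genes, and DESeq2 called 2, *Ift88* and *Wdr60*, beside 14.3% of all genes. The members' median was -0.088 beside -0.0020 over 14010 genes, and -0.054 beside 0.032 with library totals. Of the 56, 38 were negative, beside 50.4% of all genes (33 of 56 with library totals, beside 44.3%). Male mutants and male controls did not overlap for 11 of 56 members, beside 15.3% of all genes tested: *Ift80* was higher in mutants, and *Arl3*, *Arl6*, *Bbs2*, *Bbs5*, *Ift57*, *Ift88*, *Inpp5e*, *Nek8*, *Wdr34* and *Wdr60* were lower. The largest differences in males were in *Tmem67* (-0.43, SE 0.12, edgeR adjusted p = 0.0217), *Nek8* (-0.39, SE 0.11, edgeR adjusted p = 0.0291) and *Bbs10* (-0.37, SE 0.19, edgeR adjusted p = 0.195). *Nek8* was 20.6, 22.1, 21.3, 21.9 and 21.5 CPM in male controls and 15.2, 18.9, 16.9, 12.4 and 18.1 in male mutants, so each mutant lay below each control. *Wdr60* was called in males when MM2 was left out, with 1 of 56 called beside 13.2% of all genes. Leaving out each other male in turn gave 0 of 56 by edgeR (12 to 17 at an unadjusted p under 0.05, beside 25.8 to 32.2% of all genes) beside 1.32% (without MC4) to 6.28% (without MM1) of all genes.

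In females edgeR called 0 of 56, against 0.637% of all genes tested, with 2 at an unadjusted p under 0.05 (*Arl13b* higher and *Anks6* lower), beside 20.6% of all genes, and DESeq2 called 0, beside 6.43% of all genes. The median was -0.019 beside -0.0029 over 14439 genes, and 30 of 56 were negative, beside 50.5% of all genes (21 of 56 with library totals, beside 38.2%). This median had the opposite sign with library totals, 0.050 beside 0.066 for all genes, and without FC1 (0.0073) or FM1 (0.0028). Groups did not overlap for 1 of 56 members, *Anks6*, beside 7.04% of all genes tested. The largest differences were in *Arl13b* (0.32, SE 0.13, edgeR adjusted p = 0.192), *Bbs10* (-0.29, SE 0.18, edgeR adjusted p = 0.416) and *Tctn3* (-0.29, SE 0.15, edgeR adjusted p = 0.294). *Tctn3* was 15.7, 12.6, 13.6, 12.03 and 11.6 CPM in female controls and 9.74, 10.5, 10.6, 8.79 and 12.98 in female mutants, and FM5 lay inside the control range. Without FM4 these values were 0.21 for *Arl13b*, -0.24 for *Bbs10* and -0.24 for *Tctn3*. The largest differences in that fit were in *Inpp5e* (-0.32), *Mkks* (-0.31) and *Ift43* (0.30, against 0.13 with FM4). EdgeR again called 0 of 56 in females (3 at an unadjusted p under 0.05, beside 28.8% of all genes), with 5.93% of all genes called. Leaving out each other female in turn gave 0 of 56 by edgeR (1 to 6 at an unadjusted p under 0.05, beside 15.4 to 20.0% of all genes) beside 0.0206% (without FC2) to 0.393% (without FM3) of all genes.

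Whether the response differed between the sexes was tested by the sex by genotype term, positive where the difference was more positive in males. EdgeR called 0 of 56, against 0% of all 14820 genes tested, and DESeq2 called 0, beside 0.121%. At an unadjusted p under 0.05 there were 2 of 56, *Bbs5* (-0.38, SE 0.18) and *Tmem67* (-0.36, SE 0.16), beside 4.17% of all genes, and both had an edgeR adjusted p of 1.00. Without FM4 edgeR called 0 of 56, beside 0.0201% of all genes. The 2 at an unadjusted p under 0.05 were then *Tmem67* (-0.38) and *Wdr60* (-0.27), beside 6.95% of all genes. With library totals there were 4 at that level, beside 4.24% of all genes. The members' median was -0.035 beside 0.035 over all genes. It ran from -0.10 to -0.011 with 1 mouse left out and was -0.098 with library totals. Of the members 35 of 56 (62.5%) were negative, beside 42.1% of all genes, and with library totals 40 of 56 (71.4%), beside 56.9%. Without MC3, MC5 or MM1 there were 41 of 56 (73.2%), beside 54.4, 55.6 and 56.1% of all genes. Without FC5 or FM5 there were 30 of 56 (53.6%), beside 42 and 42.1%. *Bbs5*, a BBSome subunit chosen for mention after its values were seen, was 9.58, 9.53, 8.79, 9.25 and 10.9 CPM in male controls and 7.57, 8.75, 7.86, 7.72 and 8.52 in male mutants, against 7.19, 9.60, 6.72, 8.75 and 6.99 in female controls and 9.28, 9.47, 7.34, 9.05 and 8.05 in female mutants. It was lower in all 5 male mutants than in any male control, and female mutants overlapped female controls. The sign of the fold change was the same in both sexes for 38 of 56 members (67.9%), 25 lower and 13 higher, beside 75.0% of the 13900 genes tested in both sexes. The interval of the term lay within 0.5 log2 of no difference for 34 of 56 members.

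Single cilium genes also differed between the sexes among the controls. In controls, males against females, edgeR called 4 of 56, against 17.8% of all genes tested, each higher in males: *Tulp3*, *Bbs7*, *Wdr34* and *Ift52*. At an unadjusted p under 0.05 there were 17 of 56 (13 higher, 4 lower in males), beside 40.4% of all genes. The members' median was 0.038 beside -0.011 over 14123 genes, and with library totals it was -0.10 beside -0.15. DESeq2 called 7, each higher in males, beside 21.4% of all genes. With library totals edgeR called 5, *Tulp3* and *Bbs7* higher and *Kifap3*, *Ift27* and *Ahi1* lower in males, beside 21.0% of all genes. Without MC1 or MC4 it called 2, *Tulp3* and *Bbs7*, beside 14.5% and 8.57% of all genes. Groups did not overlap for 10 of 56 members, beside 23.9% of all genes tested: *Arl6*, *Bbs7*, *Ift52*, *Ift57*, *Ift88* and *Tulp3* were higher in males, and *Ahi1*, *Anks6*, *Bbs2* and *Kifap3* lower.

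*Tulp3*, the adapter that brings receptors to IFT-A, had the smallest adjusted p. *Tulp3* stood at 53.1, 57.3, 62.2, 55.1 and 63.2 CPM in the male controls, 41.7, 50.4, 53.8, 49.6 and 55.5 in the male mutants, 38.8, 41.8, 38.8, 40.97 and 37.7 in the female controls and 32.5, 31.5, 30.1, 46.2 and 33.8 in the female mutants. All male controls lay above all female controls, by 0.61 log2 (SE 0.080, 1.53-fold, edgeR adjusted p = 0.000145). Inside the litters, in the order A, B, C, it was 0.57, 0.44 and 0.75. In mutants the difference was 0.57 (adjusted p = 0.0205), with the female mutant FM4 inside the male range.

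*Bbs7*, a BBSome subunit, showed the same order. *Bbs7* stood at 20.9, 20.4, 23.9, 25.3 and 24.9 CPM in the male controls, 22.9, 24.1, 23.1, 24.2 and 23.1 in the male mutants, 15.6, 17.9, 16.97, 17.4 and 13.5 in the female controls and 15.4, 17.2, 16.6, 20.7 and 17.9 in the female mutants. No male lay below any female within either genotype. The difference in controls was 0.64 log2 (SE 0.10, 1.56-fold, edgeR adjusted p = 0.000416), inside the litters 0.47, 0.54 and 0.87, and in mutants 0.46 (adjusted p = 0.0226). *Tulp3* and *Bbs7* were called in each of the 10 fits that left out 1 control.

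*Ift52*, an IFT-B core subunit, was 58.5, 53.1, 58.6, 57.7 and 61.7 CPM in male controls and 46.9, 52.6, 47.6, 50.97 and 50.5 in female controls. These ranges did not overlap, with a difference of 0.29 log2 (SE 0.069, edgeR adjusted p = 0.00757) and inside the litters of 0.27, 0.20 and 0.29. *Wdr34* differed by 0.37 (SE 0.087, edgeR adjusted p = 0.00686), within litters by 0.37, 0.40 and 0.17, and the female control FC5 lay inside the male range. The call of *Ift52* was lost without MC1 (0.0176), MC4 (0.0353), MC5 (0.0287), FC1 (0.0416), FC3 (0.0152), FC4 (0.0133) or FC5 (0.0298), as adjusted p from edgeR. That of *Wdr34* was lost without MC1 (0.0145), MC2 (0.0131), MC4 (0.0773), FC1 (0.0418), FC2 (0.0138) or FC3 (0.0132). Both calls were also lost with library totals (adjusted p = 0.102 for *Ift52* and 0.0473 for *Wdr34*) and with all 20 mice in 1 fit (0.0324 and 0.0788), and that of *Ift52* with no filter on low counts (0.0115). Over the alternatives that left out no mouse, the difference ran from 0.15 to 0.30 log2 for *Ift52* and from 0.23 to 0.38 for *Wdr34*.

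In mutants, males against females, edgeR called 0 of 56, against 5.42% of all genes tested, with 14 at an unadjusted p under 0.05 (8 higher, 6 lower in males), beside 30.5% of all genes. DESeq2 called 3, *Ift122*, *Tulp3* and *Bbs7*, beside 13.6% of all genes, and edgeR without FM4 called 2, *Tulp3* and *Bbs7*, beside 9.12% of all genes. Groups did not overlap for 3 of 56 members, *Bbs7*, *Ift122* and *Ift52*, each higher in males, beside 13.3% of all genes tested. The median was -0.043 beside -0.031 over 14416 genes, and with library totals -0.22 beside -0.21, where 23 of 56 had an unadjusted p under 0.05, beside 37.2% of all genes. Without FM3, edgeR called *Kif3b*, beside 6.84% of all genes.

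**Figure D2:**
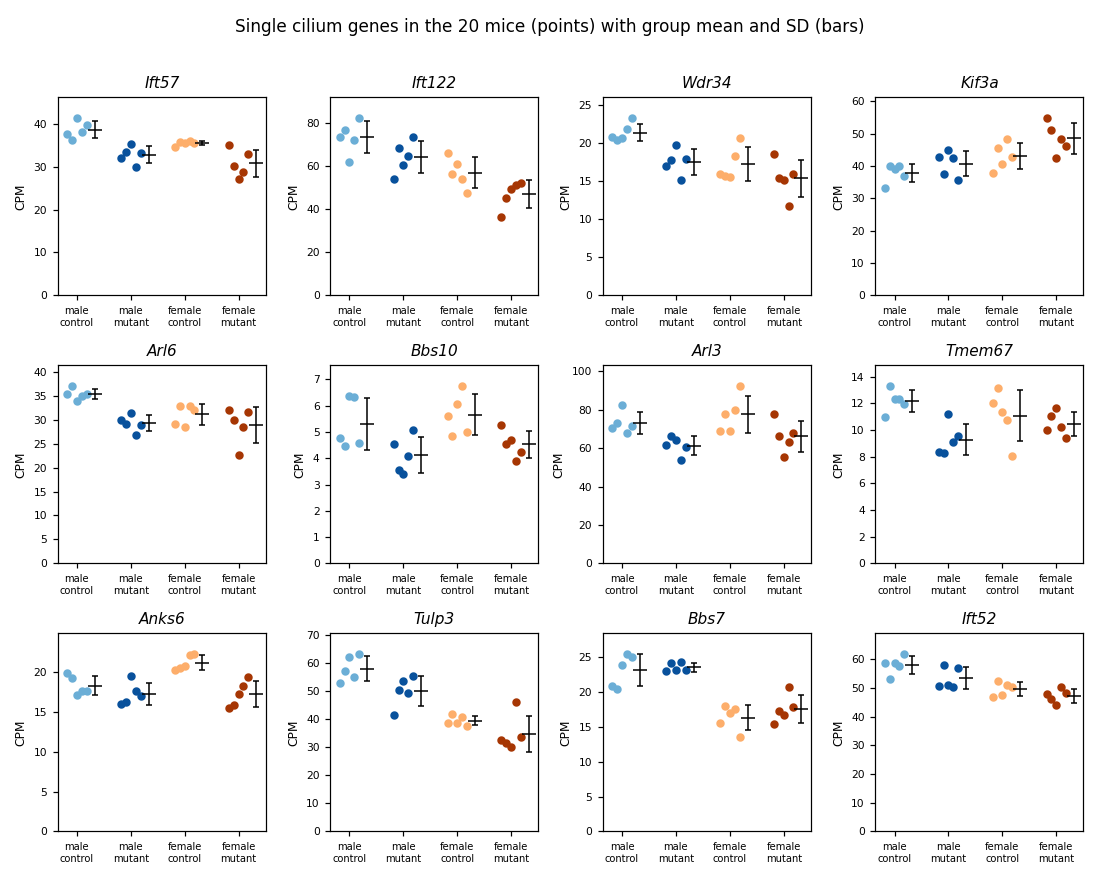
CPM (y axis, from 0) of 12 cilium genes in each of the 20 mice (points), by group (x axis), with group mean and SD (bars, n = 5). The mean of *Ift57* is 32.7 in mutants against 38.6 CPM in controls in males, and 30.8 against 35.5 in females, called in neither sex alone (edgeR adjusted p = 0.0388 and 0.280), with FM1 inside the control range. *Tulp3* is higher in male than in female controls (58.2 against 39.6 CPM). *Ift57* over both sexes and *Tulp3* between control sexes had the same sign with library totals.

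Relation to kidney size was examined in the 10 mutants, as the slope of expression on KBW with sex as a covariate, in log2 units per percentage point. EdgeR called 0 of 56, against 0% of all 14416 genes tested, with 6 at an unadjusted p under 0.05 (1 higher, 5 lower with KBW), beside 22.3% of all genes. DESeq2 called 1, *Inpp5e*, beside 4.00% of all genes. The members' median slope was -0.11 beside -0.057 over all genes, and 38 of 56 were negative, beside 55.1% of all genes. With library totals the median was 0.064 beside 0.11, with 23 of 56 negative beside 39.5% of all genes and 4 at an unadjusted p under 0.05 beside 21.1%. *Inpp5e*, chosen for mention after its values were seen, had the steepest slope of the 56, -0.88 (SE 0.22, edgeR adjusted p = 0.0545), with 18.7, 26.7, 23.6, 26.9 and 26.6 CPM in male mutants, whose KBW was 2.15, 1.22, 1.79, 1.54 and 1.71%, and 19.7, 28.3, 20.7, 35.1 and 31.5 CPM in female mutants, whose KBW was 1.38, 1.24, 1.46, 0.836 and 1.00%. MM1, with the highest KBW, was the lowest of the mutants and FM4, with the lowest KBW, the highest. Of the exon bases of *Inpp5e*, 20.3% are shared with *Pmpca* on the other strand, which was at 82.00 CPM. Since the strandedness of counting is not given, reads of the pair from the shared bases cannot be told apart. Without FM4 the slope of *Inpp5e* was -0.79, the members' median slope was -0.091 and edgeR called 0 of 56, against 0% of all genes (2 at an unadjusted p under 0.05, beside 16.9% of all genes).

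Across the 10 mutants, without the sex term, the Pearson correlation of log2 CPM with KBW had a median of -0.094 over the 56 members and 0.023 over 14820 genes. At an unadjusted permutation p under 0.05 there were 10 of 56 (17.9%) beside 15.1% of all genes, and none of the 14820 genes had an adjusted p under 0.05. The lowest was *Bbs2*, a BBSome subunit chosen for mention after its values were seen, with r = -0.80 (permutation p = 0.00448, adjusted p = 0.142) and rho = -0.75 (permutation p = 0.0171, adjusted p = 0.300). Without MM1 and FM4, the mice farthest from the median KBW, r was -0.71, and with any 1 mutant left out it ran from -0.90 to -0.71. *Tctn1*, chosen in the same way, had r = -0.78 (permutation p = 0.00756, adjusted p = 0.168) and rho = -0.89 (permutation p = 0.00102, adjusted p = 0.207), and r = -0.83 without those mice (-0.89 to -0.73 with any 1 left out). Of its exon bases 19.0% are shared with *Hvcn1* on the other strand, which was at 2.33 CPM against 12.8 for *Tctn1*. Here too reads from the shared bases cannot be told apart. The highest was *Ift81*, with r = 0.76 (permutation p = 0.0115), rho = 0.61 (permutation p = 0.0663) and r = 0.44 without them (0.59 to 0.85 with any 1 left out). With sex in the fit the slopes on KBW were -0.49 for *Bbs2*, -0.65 for *Tctn1* and 0.16 for *Ift81* (edgeR adjusted p = 0.202, 0.162 and 0.605). Male mutants had higher KBW on average than female mutants, and with 5 mutants of a sex no correlation within a sex was computed.

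For the gene with the smallest adjusted p over both sexes in each of the 9 roles, r was 0.28 for *Ift57* (rho 0.24), 0.26 for *Ift122* (rho 0.35), -0.35 for *Kif3a* (rho -0.37), 0.59 for *Wdr34* (rho 0.44) and -0.014 for *Arl6* (rho -0.055). It was 0.16 for *Bbs10* (rho 0.14), -0.29 for *Arl3* (rho -0.49), -0.18 for *Tmem67* (rho -0.0061) and -0.22 for *Anks6* (rho -0.079). The permutation p of these 9 Pearson correlations ran from 0.0707 to 0.968, and their adjusted p from 0.376 to 0.991; the sign of *Tmem67*, *Anks6* and *Bbs10* was the opposite without MM1 and FM4. Without FM4 alone, r was 0.079 for *Ift57*, 0.25 for *Ift122*, -0.27 for *Kif3a*, 0.32 for *Wdr34*, -0.052 for *Arl6*, 0.038 for *Bbs10*, -0.35 for *Arl3*, -0.13 for *Tmem67* and -0.10 for *Anks6*. These correlations pool the sexes. With sex as a covariate the slopes on KBW, in log2 units per percentage point, were -0.012 for *Ift57*, -0.41 for *Ift122*, 0.11 for *Kif3a*, 0.22 for *Wdr34*, -0.065 for *Arl6*, 0.38 for *Bbs10*, -0.049 for *Arl3*, 0.15 for *Tmem67* and -0.15 for *Anks6*, so that *Ift57*, *Ift122*, *Kif3a* and *Tmem67* had the opposite sign to their r, and the edgeR adjusted p ran from 0.263 to 0.977. Without FM4 these slopes were -0.073 for *Ift57*, -0.40 for *Ift122*, 0.14 for *Kif3a*, 0.037 for *Wdr34* and -0.081 for *Arl6*. They were 0.34 for *Bbs10*, -0.095 for *Arl3*, 0.18 for *Tmem67* and -0.11 for *Anks6*.

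Each mouse can also be placed by the median, over the 56 members, of its log2 CPM minus the mean of that gene in all 20 mice. This was 0.056, 0.033, 0.054, 0.059 and 0.054 in male controls and -0.090, -0.040, -0.0014, -0.062 and -0.022 in male mutants. In female controls it was 0.047, 0.083, 0.067, 0.051 and -0.0066, and in female mutants -0.088, -0.036, -0.045, 0.062 and 0.017. Male mutants all lay below male controls, while in females FM4 and FM5 lay inside the control range. Over all genes the same median ran from -0.018 to -0.0038 in male controls and -0.019 to 0.020 in male mutants. It ran from 0.016 to 0.029 in female controls and -0.042 to 0.051 in female mutants, so mutants and controls overlapped in both sexes.

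Other lists were set beside the members in mutants against controls over both sexes, where edgeR called 15.9% of all 14191 genes tested. Of the same genes 37.7% had an unadjusted p under 0.05, and DESeq2 called 20.9%. Of 23 other IFT, BBS and transition zone genes, 22 were tested and 0 were called (4 at an unadjusted p under 0.05 and 1 by DESeq2), with a median of -0.016, or 0.039 with library totals; *Lztfl1*, a regulator of BBSome entry, was at -0.22 (adjusted p = 0.0183) and *Tmem138* at 0.34 (adjusted p = 0.0281). *Iqcb1* and *Tmem17* were at -0.23 and 0.36. Of 22 distal appendage and ciliogenesis genes tested, 1 was called, beside the same 15.9%: *Dzip1*, which helps assemble the transition zone, fell (-0.43, SE 0.079, adjusted p = 0.000560), and *Fuz*, *Sclt1* and *Rab23* at -0.32, -0.16 and 0.15 were not called by edgeR. DESeq2 called *Dzip1* and *Fuz*. The median of that list was -0.035, and 0.021 with library totals.

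Of 9 genes listed under cilium disassembly, *Ccp110*, *Cep97* and *Kif24* included, 3 rose and 0 fell, beside 15.9% of all genes called. The list median was 0.12, or 0.19 with library totals, and 2 of the 9 were negative. Those called were the mitotic kinases *Aurka* (1.27, adjusted p = 7.06e-05), *Plk1* (1.69, adjusted p = 0.000401) and *Nek2* (1.00, adjusted p = 0.000534), which are also known for their work in cell division. *Kif2a*, a microtubule depolymerase, was at 0.16 and not called by edgeR. Summed over the list, the level was 221, 208, 192, 219.6 and 223 CPM in the male controls, 238, 208, 237, 230.3 and 215 in the male mutants, 239, 215, 247, 228 and 208 in the female controls and 211, 248, 251, 264 and 233 in the female mutants. Mutants and controls overlapped in both sexes, and *Hdac6* was the most abundant at 83.2 CPM. Of 10 cell division markers, 10 rose, with a median of 2.20 log2; *Cenpf* (2.33), *Top2a* (2.37), *Bub1* (2.59) and *Mki67* (2.14) were among them. Their summed level was 22.1, 19.2, 19.1, 27.8 and 20.5 CPM in the male controls, 167, 73.5, 186, 126 and 66.9 in the male mutants, 21.4, 26.01, 29.4, 28.2 and 17.2 in the female controls and 76.5, 119, 163, 59.1 and 57.8 in the female mutants. Every mutant lay above every control in the sum of the cell division markers, and *Mki67* was its most abundant gene. The part of dividing cells in the rise of *Aurka*, *Plk1* and *Nek2* was not tested.

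Of 16 tubulin and axoneme modification genes tested, 4 rose and 0 fell, beside 15.9% of all genes called: *Tuba1a* (1.14, adjusted p = 8.50e-05), *Tubb6* (0.97, adjusted p = 0.000119), *Tubb5* (0.97, adjusted p = 0.000427) and *Tuba1b* (0.66, adjusted p = 0.000849), all tubulins found throughout the cell. DESeq2 also called *Tuba4a*. The list's median was 0.060, and 0.12 with library totals. Of 15 hedgehog pathway genes tested 1 was called, beside the same share: *Gli3*, a transcription factor processed at the cilium, rose (1.05, adjusted p = 0.00615), and *Cdon* (0.44), *Evc* (-0.26) and *Kif7* (-0.31) were not called by edgeR. DESeq2 called *Gli3*, *Cdon* and *Evc*. *Gli3* was low, at means of 0.115 and 0.207 RPKM in male controls and male mutants. In female controls and female mutants *Gli3* was at 0.132 and 0.323 RPKM. *Gli2*, *Hhip* and *Gpr161* were below the filter.

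Among 7 RFX and other cilium transcription factors tested, *Foxj1*, the master regulator of motile cilia, rose and the others were not called by edgeR (1 of 7, beside 15.9% of all genes), with *Rfx5* at 0.15 and *Rfx2* at 0.23. *Foxj1* stood at 0.659, 0.889, 0.901, 0.243 and 0.514 CPM in the male controls, 8.59, 1.30, 5.17, 2.71 and 1.19 in the male mutants, 0.659, 0.600, 0.354, 0.536 and 0.380 in the female controls and 4.24, 3.90, 4.05, 1.81 and 1.35 in the female mutants. Every mutant lay above every control of either sex. The log2 fold change was 2.58 (SE 0.33, edgeR adjusted p = 3.07e-05), and edgeR called it in the fit of males (adjusted p = 0.00786) and in that of females (adjusted p = 0.00650). Levels were low, 0.641 and 3.79 CPM as the means of male controls and male mutants.

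Markers of multiciliated cells, which carry motile cilia, gave 1 higher and 1 lower gene by the test, 2 of 12 beside 15.9% of all genes. Of 27 names 24 were in the table and 12 were tested, and *Foxj1* rose, *Dnah11* fell (-0.89, adjusted p = 0.000953) and 10 were not called by edgeR, *Cfap44* (1.09) and *Zmynd10* (-0.19) among them. *Sntn* had 0 counts in all 20 mice, and *Hydin* and *Tmem212* had at most 3 counts in any mouse. The summed level of the list was 69.8, 72.9, 73.98, 66.1 and 73.8 CPM in the male controls, 68.7, 72.1, 69.6, 59.6 and 69.9 in the male mutants, 60.7, 64.4, 54.2, 63.2 and 76.8 in the female controls and 73.7, 68.6, 56.2, 58.2 and 71.7 in the female mutants. The groups overlapped, and the most abundant gene was *Zmynd10* at 24.4 CPM.

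Markers of the tubule segments differed by list in the share called, beside 15.9% of all genes. Of 10 loop and distal tubule markers, 9 fell and 0 rose, with a median of -0.74: *Slc12a3* (-1.11), *Kcnj1* (-0.69) and *Pvalb* (-1.26) were among them. Summed over the list, the level was 9873, 9656, 9221, 9292 and 9662 CPM in the male controls, 5279, 6628, 6191, 6656 and 6646 in the male mutants, 13998, 13802, 13585, 13149 and 13832 in the female controls and 8928, 7414, 6018, 9230.1 and 8152 in the female mutants. In both sexes every mutant lay below every control, and *Umod*, the most abundant, averaged 4188 CPM. Of 12 proximal tubule markers 3 fell (*Miox* at -0.86, *Slc22a12* at -0.68 and *Pck1* at -0.66), 0 rose and *Slc5a2* (-0.42) was not called by edgeR. Their summed level was 23712, 23766, 23799.8, 22386 and 23724 CPM in the male controls, 15578, 22594, 19354, 19006 and 23223 in the male mutants, 19886, 19440.4, 18416, 20609 and 22052 in the female controls and 12829.6, 13312, 10257, 19675 and 19874 in the female mutants. FM1, FM2, FM3 and MM1 were the lowest, and *Slc34a1* was the most abundant at 4109.6 CPM.

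Of 15 collecting duct markers 6 fell and 2 rose, beside 15.9% of all genes called, with *Slc4a1* at -1.26, *Atp6v0d2* at -0.52, *Scnn1g* at -0.30 and *Krt8* at 0.57. The summed level of the list was 937, 949, 1165, 1256 and 1071 CPM in the male controls, 1004, 960.3, 983, 1046 and 956 in the male mutants, 1371, 1347, 1392, 1567 and 1667 in the female controls and 1567, 1305, 1087, 1371 and 1506 in the female mutants. The groups overlapped, and *Aqp2* was the most abundant at 205 CPM. Of 6 podocyte markers 4 fell, among them *Podxl* (-0.56, edgeR adjusted p = 0.000198), *Wt1* (-0.49) and *Nphs1* (-0.65). Summed over the list, the level was 399, 404, 381, 397 and 257 CPM in the male controls, 238, 313, 268, 344 and 246 in the male mutants, 570.3, 643, 588, 591 and 499.6 in the female controls and 377, 384, 415, 443 and 469.9 in the female mutants. Female mutants lay below female controls, males overlapped through MC5, and *Podxl* was the most abundant at 216 CPM. Of 8 endothelial markers none was called by edgeR over both sexes. At an unadjusted p under 0.05 there were 6, beside 37.7% of all genes, and DESeq2 called 2, beside 20.9%. Among the 8 markers were *Ehd3* at -0.30, *Pecam1* at 0.32, *Kdr* at -0.34 and *Cdh5* at 0.31. Their summed level was 425, 414, 408, 445 and 379 CPM in the male controls, 496, 459, 465.9, 551 and 455 in the male mutants, 612, 539, 633, 609.8 and 586 in the female controls and 487, 578, 587, 510.0 and 560.4 in the female mutants. Male mutants lay above male controls, females overlapped, and *Plvap* was the most abundant at 133 CPM.

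Of 10 fibroblast and myofibroblast markers 6 rose and 0 fell, beside 15.9% of all genes called in either direction, with *Col3a1* at 2.20, *Col1a1* at 2.05, *Col1a2* at 1.23 and *Acta2* at 1.25. The summed level of the list was 351, 308, 345, 337 and 269 CPM in the male controls, 1343, 521, 865, 991 and 463 in the male mutants, 383, 370.0, 551, 489 and 400.2 in the female controls and 1079, 1085, 1760.4, 533 and 613 in the female mutants. Of 10 macrophage and lymphocyte markers tested 7 rose and 0 fell, with *C1qc* at 1.72, *Adgre1* at 1.54, *Cd68* at 1.45 and *C1qa* at 1.61. Summed over the list, the level was 115, 126, 125.4, 128 and 132 CPM in the male controls, 396, 170.0, 267, 264 and 179 in the male mutants, 190.1, 149.8, 162, 151 and 157 in the female controls and 475, 323, 555, 152 and 219 in the female mutants. Male mutants lay above male controls in both sums, and in females FM4 lay inside the range of controls. The most abundant genes were *Col3a1* at 157 and *Csf1r* at 76.7 CPM.

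Of 7 tubule injury markers 7 rose, beside 15.9% of all genes called, with a median of 2.54 log2, among them *Vcam1* (2.54), *Lcn2* (4.60) and *Krt20* (5.13). Their summed level was 989, 831, 1046, 962 and 847 CPM in the male controls, 9468, 1954, 3803, 3272 and 1827 in the male mutants, 1903, 2121, 2049, 2035 and 2325 in the female controls and 10241, 7945, 8967, 3099 and 2731 in the female mutants. In neither sex did a mutant reach down to the controls, and *Spp1* was the most abundant at 3258 CPM. The part of these shifts in the values of the cilium genes was not tested.

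**Figure D3:**
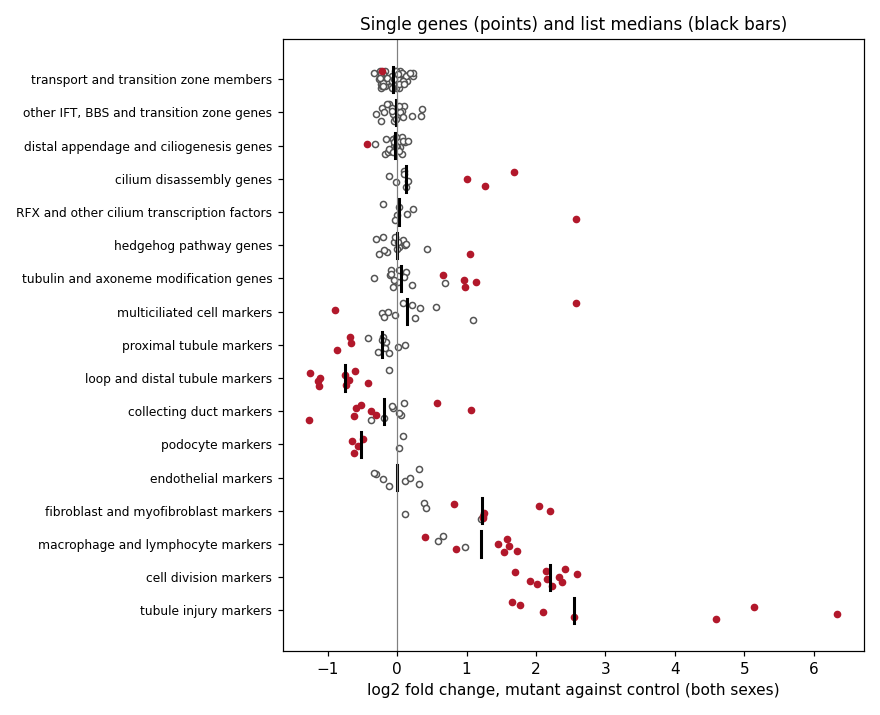
Log2 fold change of mutants against controls over both sexes (x axis) for the tested genes of each list (points), with the list's median (black bar), from 20 mice; red points were called by edgeR at an adjusted p under 0.01. The cilium transport and transition zone genes lie between -0.34 and 0.23 around a median of -0.061 (-0.0024 with library totals), while the 10 cell division markers lie between 1.69 and 2.59.

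A promoter feature was counted that the choice of names did not use. RFX factors, which switch on cilium genes, bind the X-box, searched here as GTTNCC, then 0 to 3 bases, then GGNAAC, on either strand; its arm was searched as GTTGCC on either strand and can lie within it. Promoters (RefSeq, GRCm38.p6, 250 bases before to 50 after each gene start) were matched for 51 of 57 members. *Ift80*, *Ift81*, *Ift122*, *Dync2li1*, *Tmem67* and *Anks6* had no entry. A gene was counted if any of its promoters matched, whereas the share of all promoters was taken promoter by promoter. The arm was found for 22 of 51 members (43.1%), beside 14.8% of the 11215 genes with a promoter that passed the filter. It was in 12.5% of all 32851 promoters. The X-box was found for 6 of 51 members (11.8%), beside 1.01% of the genes that passed the filter, and in 0.804% of all promoters. By role the arm was found for 8 of 11 transition zone genes, 5 of 11 IFT-B, 3 of 8 BBSome and 2 of 5 IFT-A genes. It was found for 2 of 4 kinesin-2, 1 of 3 dynein-2 and 1 of 4 membrane cargo genes. For chaperonin and inversin compartment genes it was 0 of 3 and 0 of 2. A match is a description of letters, not a binding site.

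Of the 6 genes with an X-box, *Ift57* was called in mutants over both sexes, beside 15.9% of all genes. *Bbs7* was called between the control sexes, beside 17.8% of all genes. The other 4 are transition zone genes and were called in neither comparison. The X-boxes of all 6 are printed. Each is written 5′ to 3′ on the gene's strand from the GRCm38.p6 RefSeq promoter, with capitals marking the X-box and, in *Ift57*, also a separate arm. For *Ift57* (chr16:49699044-49699293, plus strand) and *Bbs7* (chr3:36613390-36613639, minus strand) the 250 bases before the start site are shown. The shorter stretches are *Tctn1* (chr5:122264411-122264432, minus strand), *Tctn3* (chr19:40612351-40612379, minus strand), *Mks1* (chr11:87853183-87853212, plus strand) and *Ahi1* (chr10:20952560-20952589, plus strand). In GENCODE vM21 the X-boxes of *Ift57*, *Tctn1* and *Ahi1* lie in an exon and the others outside exons.
Ift57: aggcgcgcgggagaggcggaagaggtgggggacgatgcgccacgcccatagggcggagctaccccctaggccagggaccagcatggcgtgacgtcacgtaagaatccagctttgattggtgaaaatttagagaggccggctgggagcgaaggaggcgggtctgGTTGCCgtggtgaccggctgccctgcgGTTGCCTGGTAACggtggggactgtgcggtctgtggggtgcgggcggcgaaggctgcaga
Bbs7: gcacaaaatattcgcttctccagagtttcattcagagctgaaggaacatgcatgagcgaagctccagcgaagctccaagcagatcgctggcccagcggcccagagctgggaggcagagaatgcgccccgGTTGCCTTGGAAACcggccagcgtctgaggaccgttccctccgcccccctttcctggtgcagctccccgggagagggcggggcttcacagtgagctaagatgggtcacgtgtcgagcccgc
Tctn1: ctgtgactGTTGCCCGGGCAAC
Tctn3: tcccagcgGTTGCCAGGTAACgggaacca
Mks1: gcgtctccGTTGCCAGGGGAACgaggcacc
Ahi1: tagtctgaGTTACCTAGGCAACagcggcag
The 6 genes with an X-box did not share a direction in mutants against controls over both sexes: *Ift57*, *Mks1*, *Tctn3* and *Tctn1* were at -0.22, -0.22, -0.20 and -0.15, and *Ahi1* and *Bbs7* at 0.044 and 0.063.

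The members lie on 17 autosomes, with at most 7 on a chromosome (2 and 5). Exons of 13 of the 57 overlap those of another annotated gene. The largest shares were 29.3% of the exon bases of *Mkks* with an unnamed gene on its own strand, 22.4% of *Cluap1* with *Gm20695* on its own strand, 20.3% of *Inpp5e* with *Pmpca* and 19.0% of *Tctn1* with *Hvcn1* on the other strand. For *Ift57*, 7.86% of exon bases are shared with the antisense gene *Gm15518*, which has no entry in the count table.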

How the data were processed

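Each library was whole kidney RNA of 1 mouse. The deposited values are raw counts per gene symbol, made by the authors after trimming in fastp 0.23.2 and alignment by STAR 2.7.10b on mm10. The counting tool, annotation and strand setting are not stated. Counts were fitted in R 4.3.3 with edgeR 4.0.16 (TMM, filterByExpr, quasi-likelihood F test, limma 3.58.1), and adjusted p is Benjamini-Hochberg over all genes tested, with calls under 0.01. Covariates were the 6 groups of sex and litter over both sexes, litter within a sex or genotype, and sex for the slope on kidney weight as a percentage of body weight. Log2 CPM used a prior count of 2, and intervals are 95%. Tests were two-sided. Correlations over the 10 mutants used 100000 permutations for Pearson's r and Spearman's rho, adjusted over 14820 genes. Alternatives were DESeq2 1.42.0, its size factors, library totals, no filter, at least 10 counts in every mouse, other covariates, an adjusted p under 0.05, and each mouse left out in turn. The fits were tested on simulated data with planted changes of 1 on the log2 scale, and smaller changes were not simulated.

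The members and the gene lists were chosen with earlier results of these data known. Given in every mouse by a rule are *Pkd2*, members called over both sexes and, in each role without one, the member with the smallest adjusted p there. Members called elsewhere, the 3 with the largest difference within each sex, the ends of each role by mean CPM, and at most 4 genes of each other list by adjusted p are also named. Of these, *Tulp3*, *Bbs7*, *Arl13b*, *Bbs5* and *Foxj1* are also given in every mouse. Totals of 11307741 to 19324073 counts per library set the precision, and 0 counts in a library allow up to 3. Reads carry no molecular identifiers, so this covers counting error only.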

Additional observations from a re-analysis of the deposited data

Results flagged for a closer look

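In 88 groups of 5 mice (22 measures), 5 held a mouse set apart from the other 4 by a gap over 0.71 of the group's range, or 5.68%; chance sets apart about 1 in 20 groups. The female mutant FM4 was set apart in *Arl13b*, at 28.5 CPM beside 18.8 to 19.9 in the other female mutants. It was also set apart in *Tulp3*, at 46.2 CPM beside 30.1 to 33.8, and in genes detected, 14850 beside 17294 to 17724. The male control MC5 had a kidney weight of 0.896% of body weight beside 0.599 to 0.678% in the other male controls. The male control MC2 had a median deviation of the cilium transport and transition zone genes of 0.033 beside 0.054 to 0.059 in the other male controls.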

How the results depend on the processing

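No paired analysis was possible because replicate numbers name mice in the order of their entries and link no mutant to a control; litter served as the covariate. At an adjusted p under 0.05, edgeR called 11 members over both sexes (beside 26.6% of all genes), 10 in males (20.2%), 9 between control sexes (29.8%) and 3 between mutant sexes (14.6%). DESeq2 called 3, 2, 7 and 3 in these comparisons (beside 20.9, 14.3, 21.4 and 13.6% of all genes) and 1 for the slope on kidney weight (4.00%). Over both sexes no filter left 0 called by edgeR (18 at an unadjusted p under 0.05, beside 30.2% of all genes), with 19835 genes tested and 11.7% called. Without litter as a term edgeR called 2 over both sexes (beside 16.5% of all genes), 1 in males (*Arl6*, 9.81%) and 7 between control sexes (21.9%). With all 20 mice in 1 fit, edgeR called 2 between control sexes (beside 1700 of 14820 genes), where the median was -0.022, and 3 between mutant sexes (15.9%). The same fit called 0 of 56 in males, beside 5.92% of all genes, with a median of -0.070. In females it called 0, beside 5.78% of all genes against 0.637% in the main fit, with a median of -0.042. With library totals the members' medians were -0.0024 over both sexes, -0.054 in males, 0.050 in females and -0.10 between control sexes. They were -0.22 between mutant sexes, -0.098 for sex by genotype and 0.064 for the slope. The signs in females, between control sexes and for the slope were then the opposite.

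Leaving out each mouse in turn gave 0 to 3 called over both sexes (beside 11.6 to 21.0% of all genes), 0 to 1 in males (1.32 to 13.2%), 2 to 6 between control sexes (8.57 to 18.6%) and 0 to 2 between mutant sexes (1.70 to 9.12%). In females, for sex by genotype and for the slope edgeR called 0 in each such fit (beside 0.0206 to 5.93%, 0 to 0.0201% and 0 to 0.521%). Medians ran from -0.091 to -0.041 over both sexes, -0.091 to -0.057 in males, -0.050 to 0.0073 in females (positive without FC1 or, at 0.0028, FM1), 0.021 to 0.056 between control sexes, -0.092 to -0.021 between mutant sexes, -0.10 to -0.011 for sex by genotype and -0.13 to -0.059 for the slope. Kidney weight differed by 0.873 to 1.10 percentage points in males and 0.499 to 0.654 in females. The correlation with kidney weight ran from -0.351 to 0.194 for *Tmem67* and -0.113 to 0.114 for *Arl6*. Without the mice farthest from the median it was 0.319 for *Tmem67*, 0.155 for *Anks6* and -0.0526 for *Bbs10*, each with the opposite sign. The cause of these shifts was not tested. The next counts pool fold changes of single named genes with correlations with kidney weight, which were judged by sign only. Of these values, 524 kept direction and, for fold changes, side of the threshold. Another 15 fold changes passed it newly and 28 no longer passed it. The 15 include *Arl3*, *Anks6*, *Ift122*, *Nek8*, *Wdr34*, *Tulp3*, *Arl6* and *Bbs10* where only the threshold was relaxed to 0.05. The 9 values with the opposite sign were all correlations, and no fold change of a named gene changed sign. At these depths 54 of 56 intervals over both sexes lay within 0.5 log2; the exceptions were *Bbs10* (-0.59 to -0.082) and *Nphp4* (-0.19 to 0.56), genes of low count.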
